A study of Mus musculus with 2 samples.

Results

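The genes described here encode the histones, the proteins around which DNA is wound, in adult mouse cortex. They were chosen by symbol alone (symbols opening with Hist and a cluster digit followed by h, with H1f, with H2af or with H3f3, without those marked -ps), and 87 of the 55450 genes of the tables qualified. Of these, 69 are the clustered genes (Hist1 to Hist4) and 18 are the variant genes. The clustered genes lie in groups, with 56 on chromosome 13 (Hist1; Hist1h2al lies apart from the rest), 10 on chromosome 3 (Hist2), 2 on chromosome 11 (Hist3) and 1 on chromosome 6 (Hist4), whereas the 18 variant genes are spread over 10 chromosomes. By family, the clustered genes hold 6 H1, 20 H2A, 18 H2B, 12 H3 and 13 H4 genes, and the variant genes hold 4 H1, 10 H2A and 4 H3 genes. Not every symbol stands for a histone: Hist1h2aj, Hist1h2al, H2afy3 and H3f3c are annotated as pseudogenes, and H3f3aos is an antisense RNA of the H3f3a locus. H1f0 and H1fx encode linker histones outside the clusters and were counted as variants. H2afj, counted as a variant by its symbol, lies near Hist4h4 on chromosome 6 (136808244-136810074 and 136801553-136804415).

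The tissue was left cerebral cortex of B6NCrl mice aged 6 months, from which 20 ng of RNA went through poly(A) selection into 2 libraries; they form 1 group, and the labels name no treatment or altered allele. The libraries are numbered as biological replicates 1 and 2 but carry the same donor entry, so differences between them measure only the spread between these libraries, which may be technical. Each library was quantified by the authors in 2 ways from the same reads, called the first quantification (expected counts per gene) and the second (estimated counts per transcript, summed per gene here). For replicates 1 and 2, the second assigned 76100574 and 46367538 fragments to genes, and the first 51876103 and 26770991. Levels are in TPM (a count per length, scaled to the same sum in every library, so that genes can be compared), by the first quantification unless stated. Neuronal, astrocyte, oligodendrocyte, microglial and endothelial markers were all at 1 TPM or more in both libraries, cerebellar granule markers stood at 0 to 0.09 TPM, hindbrain markers at 0 to 0.01 TPM and choroid plexus markers at 0.41 to 4.87 TPM. In bulk tissue, fewer cells of a type and less RNA per cell cannot be told apart.

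Clustered histone genes are known as replication-dependent: their mRNAs are made in S phase, have no introns, and end in a conserved stem-loop in place of a poly(A) tail. The stem-loop is bound by SLBP (stem-loop binding protein), and the U7 ribonucleoprotein guides the cut a few bases after it. Variant genes are read throughout the cell cycle and in cells that no longer divide; most have introns and give polyadenylated mRNAs, and their proteins replace the clustered forms in long-lived cells such as neurons. Some clustered genes are known to give polyadenylated mRNAs as well in differentiated cells. A poly(A)+ library can capture an mRNA that ends at the stem-loop only poorly, so levels of clustered genes here describe RNA recovered by this selection.

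The annotated 3' ends differed between both classes but did not separate them fully. The histone stem-loop of 16 bases (searched on the sense strand of GENCODE M21 transcripts by its consensus, a stem of 6 base pairs opening with GG and a loop of 4 bases with T at the first and the third) was found in the main transcript of 46 of the 69 clustered genes and of 1 of the 18 variant genes, H2afx. Among all protein coding transcripts of the annotation, 0.128% held it. Of the clustered genes in which it was not found, 14 are annotated only to the stop codon and 2 are pseudogenes. Those 14 had no 3' UTR to search. The other 7 have an annotated 3' UTR, which is 48 bases or shorter in Hist1h2af, Hist1h2ah, Hist2h3b and Hist1h1a. The sequences below are those of the 7 clustered genes with the highest levels that carry it and of H2afx, with the stem-loop in capitals, and of Hist2h2ac and Hist1h4i, whose loops differ. All are on mm10, are read 5' to 3' on the gene's own strand and come from the GENCODE M21 transcripts.
Hist2h2aa1, chr3:96246027-96246052, plus strand: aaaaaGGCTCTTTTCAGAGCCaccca
Hist2h2aa2, chr3:96239779-96239804, minus strand: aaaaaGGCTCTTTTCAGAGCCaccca
Hist1h2ap, chr13:21833026-21833049, minus strand: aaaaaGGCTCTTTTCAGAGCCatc
Hist3h2a, chr11:58955167-58955192, plus strand: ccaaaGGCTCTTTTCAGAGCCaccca
Hist1h4h, chr13:23531453-23531478, plus strand: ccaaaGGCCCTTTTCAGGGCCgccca
Hist3h2ba, chr11:58949344-58949369, plus strand: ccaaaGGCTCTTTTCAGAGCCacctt
Hist1h1e, chr13:23621777-23621802, minus strand: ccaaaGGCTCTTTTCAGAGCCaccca
H2afx, chr9:44335235-44335260, plus strand: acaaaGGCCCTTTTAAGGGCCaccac
Hist2h2ac, chr3:96220413-96220438, minus strand: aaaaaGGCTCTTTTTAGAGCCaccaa
Hist1h4i, chr13:22040961-22040986, minus strand: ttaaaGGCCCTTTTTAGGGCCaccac

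There were 9 forms of the stem-loop. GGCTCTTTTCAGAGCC was shared by 26 genes, 3 H1, 10 H2A, 8 H2B and 5 H3 genes, and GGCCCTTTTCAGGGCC by 7 genes, all of them H4. In 22 clustered genes the annotated transcript ended 3 to 57 bases after the stem-loop, and in 24 it went on for 74 to 4884 bases. Of those 24, 10 carried the poly(A) signal AATAAA in their last 50 bases, against 0 of the 22 that stop near the stem-loop. Among all protein coding transcripts, 40.5% carry it there. Of the 18 variant genes, 6 carried it there in the main transcript, and H2afz, H3f3a, H2afj, H2afy and H2afx did not. H2afz, H3f3a, H2afj and H2afy each have another annotated transcript with it. The 22 end 3 to 57 bases after the stem-loop, which leaves little room for a signal. Their 0 was thus largely set by how they were chosen. The related word ATTAAA was in that window in Hist1h4h, of the 22, and in Hist1h4i and Hist1h2be, of the 24. The signals below (AATAAA in capitals) are those of the 5 clustered genes with the highest levels that carry one, and of 3 variants for comparison. Hist3h2a, Hist3h2ba, Hist1h1c and Hist1h2ae have both a stem-loop and a signal in 1 annotated transcript.
Hist3h2a, chr11:58956791-58956814, plus strand: atgcccAATAAAataagagtacgt
Hist3h2ba, chr11:58949501-58949524, plus strand: ggtattAATAAAtttggttcaatt
Hist1h2ae, chr13:23570527-23570550, minus strand: ttctccAATAAAtgggtcaatttt
Hist2h2be, chr3:96223711-96223734, plus strand: attattAATAAAgttaccgattag
Hist1h1c, chr13:23740336-23740359, plus strand: gcttctAATAAAaagcgtttagtt
H1f0, chr15:79030477-79030500, plus strand: ctttaaAATAAAactggaaaggaa
H1fx, chr6:87980424-87980447, minus strand: gggcgcAATAAAcggttccaacct
H3f3b, chr11:116021987-116022010, minus strand: cttacaAATAAActagtaagtttg

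Clustered genes gave the smaller part of the recovered histone mRNA. Of the clustered genes, 22 of 69 reached 1 TPM in both libraries, and of the variant genes 11 of 18 did, where 24.9% of all genes did. Summed over members, clustered genes stood at 519 and 505 TPM in replicates 1 and 2 (512 ± 9.93, SD, n = 2), against 1391 and 1614 TPM for variant genes (1503 ± 158). The clustered genes thus held 27.2% and 23.8% of all histone TPM. The median clustered gene was at 0.42 and 0.38 TPM and the median variant gene at 18.5 and 10.8 TPM. The ranges of both libraries did not overlap between the classes in either measure, and no test between classes was made. Among the detected genes alone, the medians were 5.49 and 5.95 TPM for the 22 clustered genes and 73.7 and 52.0 TPM for the 11 variants, beside 12.7 and 11.7 TPM for all 13794 detected genes. The Spearman correlation of levels between the libraries was 0.82 over the 69 clustered genes and 0.98 over the 18 variants, a description over genes that share these libraries.

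**Figure D1:**
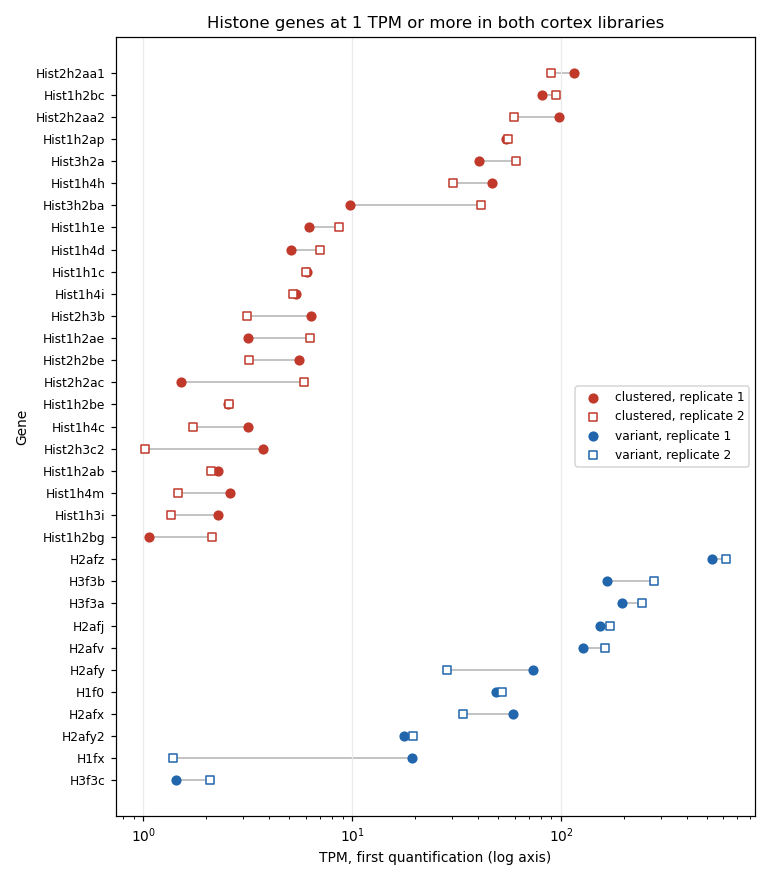
TPM of the 33 histone genes at 1 TPM or more in both libraries (log axis), with clustered genes above and variant genes below, a filled circle for replicate 1 and an open square for replicate 2. H2afz is highest at 526 and 617 TPM, and the widest gaps on this axis belong to H1fx, Hist3h2ba, Hist2h2ac and Hist2h3c2.

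The H2A family had the highest level, at 1278 and 1318 TPM, of which clustered H2A genes gave 319 and 284 TPM, against 958 and 1034 TPM for the H2A variants. Among clustered H2A genes, 4 stood at 40 TPM or more. Hist2h2aa1 had 116 and 89.4 TPM and its copy Hist2h2aa2 97.7 and 59.4 TPM. Hist1h2ap had 54.7 and 56.0 TPM, and Hist3h2a 40.5 and 61.1 TPM. All encode core H2A proteins; the Hist2h2aa copies were higher in replicate 1 and Hist3h2a in replicate 2, whereas Hist1h2ap was nearly level. Below them came Hist1h2ae (3.18 and 6.32 TPM), Hist1h2ab (2.27 and 2.12) and Hist2h2ac (1.51 and 5.88), and the other 13 clustered H2A symbols stayed below 1 TPM in at least 1 library.

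H2afz led the H2A variants. It encodes H2A.Z, a variant placed at promoters by the SRCAP and EP400 remodellers. H2afz stood at 526 and 617 TPM, was rank 275 among all genes by mean level and made up 41.2% and 46.8% of the H2A level. H2afv, which encodes the second H2A.Z protein, was at 128 and 163 TPM. H2afj, which encodes the replacement histone H2A.J, was at 154 and 172 TPM. A model annotated as a miRNA on the strand opposite to H2afj, Gm44364, held 163 and 166 fragments, against 5578 and 3225 on H2afj, and whether counting used the strand is not stated in the sources.

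H2afy and H2afy2 encode the macroH2A histones, which carry a large domain beside the histone fold. H2afy had 73.7 and 28.6 TPM and H2afy2 17.7 and 19.5 TPM. H2afx, the variant whose phosphorylated form marks DNA breaks, had 59.0 and 33.8 TPM. Its transcript runs on for 822 bases after the stem-loop printed above, and its human counterpart is known to be made both with and without a poly(A) tail. The testis variants H2afb1, H2afb2 and H2afb3 and the pseudogene H2afy3 had no fragment in either library by the first quantification. For a gene with no fragment, 3 counts allow up to 0.0578 CPM (counts scaled to library size) in replicate 1 and 0.112 CPM in replicate 2, counting error only.

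The 12 clustered H3 genes summed to 15.2 and 7.49 TPM, or 4.0% and 1.40% of the family. The highest of them were Hist2h3b (6.37 and 3.13 TPM), Hist2h3c2 (3.75 and 1.02) and Hist1h3i (2.29 and 1.36), each higher in replicate 1. The variants H3f3a and H3f3b held nearly all of the rest. They encode the same protein, H3.3, which is laid down outside S phase, from coding sequences that are 76.7% identical. H3f3a had 196 and 244 TPM and H3f3b 166 and 280 TPM, together 362 and 525 TPM, both higher in replicate 2. The pseudogene H3f3c had 0 TPM in both libraries by the second quantification and 1.44 and 2.09 TPM by the first. The antisense H3f3aos had 0.06 and 0.18 TPM.

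Of the clustered genes for the linker histone H1, which binds where DNA enters and leaves the nucleosome, Hist1h1e (H1.4) had 6.19 and 8.66 TPM and Hist1h1c (H1.2) 6.07 and 6.02 TPM. The other 4 summed to less than 1 TPM in each library, and the testis form Hist1h1t had no fragment by the first quantification. Hist1h1e overlaps Hist1h2be on the same strand. The variant H1f0 encodes H1.0, a form that builds up in differentiated cells. H1f0 had 49.0 and 52.0 TPM, 60.4% and 75.3% of the H1 level. H1fx (H1.10) had 19.3 TPM in replicate 1 and 1.39 TPM in replicate 2, the largest ratio between the libraries of any detected member. The germ-line variants H1foo (oocyte) and H1fnt (spermatid) had no fragment in either library.

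H2B and H4 have no member among the variants, so here the whole level came from clustered genes. The H2B genes summed to 103 and 147 TPM. Hist1h2bc had 80.7 and 94.2 TPM, 78.2% and 63.9% of that sum. Its annotated transcript has 2 exons and a 3' UTR of 742 bases without the stem-loop. Hist3h2ba had 9.77 and 41.5 TPM, Hist2h2be 5.60 and 3.22 TPM, Hist1h2be 2.55 and 2.57 TPM and Hist1h2bg 1.07 and 2.13 TPM. The 13 H4 genes encode 1 protein of 103 residues from 12 coding sequences, and summed to 68.4 and 50.5 TPM. Hist1h4h had 46.9 and 30.5 TPM, 68.5% and 60.4% of the H4 sum. Hist1h4i (5.37 and 5.20), Hist1h4d (5.09 and 7.06), Hist1h4c (3.19 and 1.73) and Hist1h4m (2.61 and 1.47 TPM) were the other detected H4 genes.

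**Figure D2:**
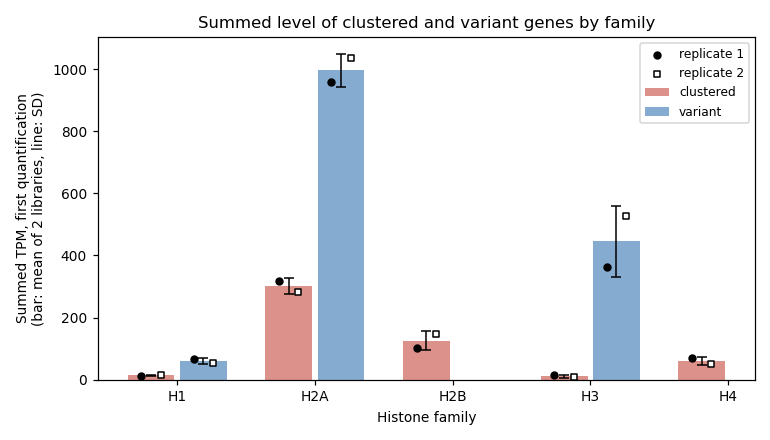
Summed TPM by histone family, clustered genes (red) left of variant genes (blue); bars are the mean of 2 libraries, lines the SD, and circles and squares replicates 1 and 2. Variants exceed clustered genes in H1, H2A and H3 in both libraries, and H2B and H4 have clustered genes only.

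The level of clustered genes was held by few of them. The 3 highest genes of each library made up 56.7% and 48.5% of the clustered level, and 10 clustered genes had no fragment in either library by the first quantification. The 56 Hist1 genes summed to 236 and 239 TPM, the 10 Hist2 genes to 233 and 163 TPM, the 2 Hist3 genes to 50.3 and 103 TPM, and Hist4h4 had 0.10 and 0.02 TPM. Genes annotated to end near the stem-loop had the higher summed TPM, and those that extend past it the higher median. Summed fragments, which are not divided by length, went the other way in both libraries. They were 4803 and 2048 for genes that end near the stem-loop, and 5355 and 4017 for those that extend past it. The 22 genes that end near the stem-loop summed to 326 and 247 TPM at a median of 0.26 and 0.19 TPM, with 7 of them detected, and 4 genes, the Hist2h2aa copies, Hist1h2ap and Hist1h4h, held most of this. The 24 genes that extend past it summed to 92.6 and 148 TPM at a median of 1.17 and 0.72 TPM, with 11 detected. The 7 genes with an annotated 3' UTR but no stem-loop in it, Hist1h2bc among them, summed to 94.2 and 101 TPM with 3 detected. Of these, Hist1h2af, Hist1h2ah, Hist2h3b and Hist1h1a have only 1, 2, 37 and 48 annotated bases after the stop codon. Their annotation may stop before a stem-loop. The 14 genes annotated only to the stop codon summed to 6.50 and 8.85 TPM with 1 detected, Hist1h3i.

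**Figure D3:**
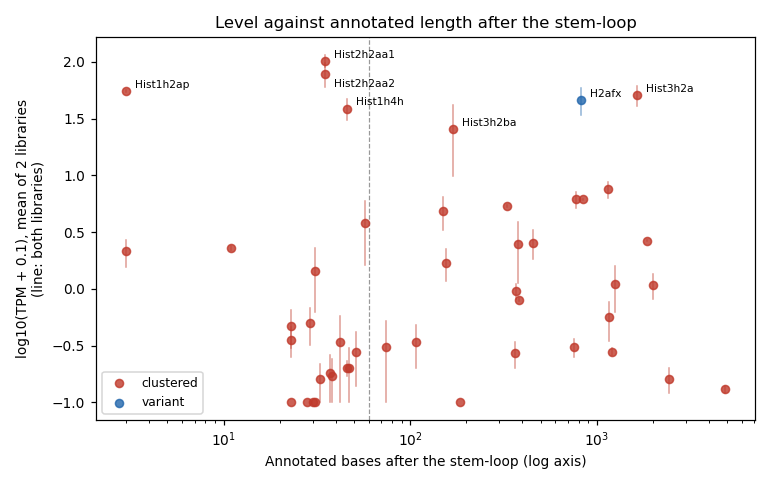
Mean level as log10(TPM + 0.1) against the annotated bases after the stem-loop (log axis) for the 46 clustered genes and H2afx that carry one; lines join the libraries and the dashed line marks 60 bases. Hist2h2aa1, Hist2h2aa2, Hist1h2ap and Hist1h4h sit high at the left, with the other genes that end near the stem-loop at or below 10 TPM.

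Upstream of the start sites, the word TATAAA on either strand was present in 55.6% of 63 clustered promoters and 6.67% of 15 variant promoters (1 promoter), against 13.6% of 32851 promoters of the same 300 bases in RefSeq. The word CCAAT was present in 85.7% and 66.7%, against 37.4% of all. Both are matches of letters only.

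Sequence shared with other genes limits what a level of 1 clustered gene means. Of the 69 clustered genes, 43 had fewer than 50% of their 31-base words unique in the annotation, against 3 of 18 variants, with medians of 38.1% and 86.7%. A word counted as shared if any other gene's transcript held it on either strand, so overlapping models lower the share as near-identical copies do. The antisense model Gm20628, for example, overlaps Hist2h3b and Hist2h2bb, which had no unique word. The Hist2h2aa pair had none: the coding sequences (390 bases) are identical, and the 528-base transcript of Hist2h2aa2 lies whole within the 586 bases of Hist2h2aa1. The second quantification gave Hist2h2aa1 141 and 106 TPM and Hist2h2aa2 0 in both libraries. The first split the fragments, 1967 and 844 to Hist2h2aa1 and 1432 and 490 to Hist2h2aa2, with a deposited posterior SD of 99.99 and 70.1 fragments for Hist2h2aa1. Summed, the pair stood at 141 and 106 TPM by the second and 213 and 149 TPM by the first. The split between the copies is uncertain. Hist1h2ap and Hist1h2ao, which encode the same protein, had only 6.64% and 6.22% unique words. Both quantifications gave Hist1h2ao 0 fragments in both libraries, but its posterior SD in the first was 14.98 and 8.27 fragments. Hist1h2ap had 701 and 410 fragments by the first, and what part of them came from such copies was not tested.

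Hist2h2aa2 was the only member that differed at least 2-fold between the quantifications in both libraries. It was 1 of 20 members at a mean of 5 TPM or more, on log2(TPM + 0.1), where 0.96% of all genes at that level were lower and 1.87% higher in the second. No member was higher. The median log2 ratio, second over first, was -0.33 and -0.24 in replicates 1 and 2 for the 10 clustered genes, -0.37 and -0.28 for the 10 variants, and -0.39 and -0.28 for all genes at that level. H3f3c, below that level, was 0 by the second quantification and only 8.66% of its words are unique. The pseudogene Hist1h2al had 1.08 and 1.02 TPM by the second quantification and no fragment by the first, and Hist1h2bn (1.11 and 1.16) and Hist1h4n (1.52 and 1.04 TPM) reached 1 TPM in both libraries by the second only. Models annotated as miRNAs overlap 22 members, 21 of them H2A genes, nearly always on the opposite strand (21 of 22); their fragments add up to 259 and 256.

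**Figure D4:**
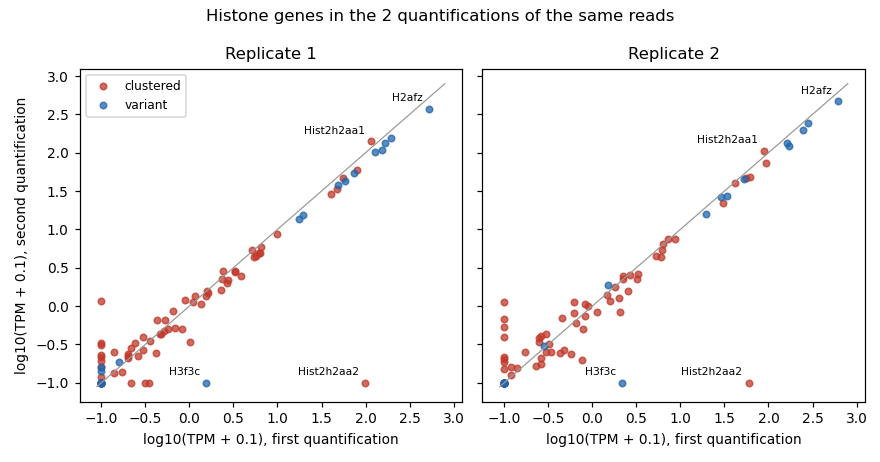
Level of each of the 87 histone genes as log10(TPM + 0.1) in the first (x axis) and second quantification (y axis) for each library, clustered in red and variant in blue, with the line of equal values. Among the 20 genes at a mean of 5 TPM or more, most lie just below the line, and Hist2h2aa2 lies at 0 in the second quantification. H3f3c, below that level, also lies at 0 in the second, and a column at the left marks genes with 0 in the first.

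Isoforms of the variants differed in how far they repeated between libraries. H2afz came almost wholly from H2afz-201, with 97.1% and 97.9% of its TPM. H2afv was split between H2afv-202 (65.5% and 62.2%) and the shorter H2afv-201. H2afj-202, with 2 exons, had 60.9% and 63.1% of the H2afj level and H2afj-201, with 1 exon, the rest. H3f3b-201 had 85.0% and 82.8%. For H3f3a, H3f3a-201 had 54.6% and 57.3%, while H3f3a-207 had 18.7 and 24.5 TPM by the second quantification and 15.8 and 60.8 TPM by the first.

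H2afy has 2 coding transcripts that differ by an internal exon, as is known for the macroH2A1 splice forms. H2afy-201 uses an exon of 100 bases (chr13:56089758-56089857) and H2afy-202 one of 91 bases (chr13:56088252-56088342). H2afy-201 had 23.1 and 12.9 TPM by the second quantification and 31.5 and 15.0 TPM by the first. H2afy-202 had 17.2 and 12.7 TPM by the second and 22.96 and 12.7 TPM by the first. The noncoding H2afy-204 had 13.5 and 0.39 TPM by the second and 18.3 and 0.67 TPM by the first, 24.8% and 2.34% of the gene. Without it the gene still stood higher in replicate 1, since both coding forms were.

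The libraries were compared gene by gene on rounded expected counts with an exact binomial test at normalised library sizes, adjusted by Benjamini-Hochberg over 14646 genes; ratios are replicate 1 over replicate 2, and the test compares these libraries, not conditions. Of 30 members tested, 23 passed the adjusted threshold of 0.05, a share of 76.7%, where 62.6% of all genes did. Higher in replicate 1 were 12 members (36.4% of all genes), and lower in replicate 1 were 11 (26.2%). By class, 9 clustered genes were called higher and 7 lower of 20 tested, and 3 variants higher and 4 lower of 10. At 1.5-fold or more on CPM + 0.5, 14 members were called (10 higher and 4 lower), against 20.5% of all genes. Hist1h4h, at a ratio of 1.51 without the added 0.5, stood just short of this at 0.57 on the log2 scale of CPM + 0.5. Medians of the log2 ratio were 0.10 for clustered genes, -0.03 for variants and 0.03 for all genes.

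The largest ratio was that of H1fx, with 817 fragments in replicate 1 and 31 in replicate 2, a ratio of 14.9 (95% interval 10.4 to 22.0, adjusted exact p 3.46e-115). Gm5577, a longer model on the opposite strand that overlaps H1fx, held 34.6 and 40.9 fragments. How fragments were divided between H1fx and Gm5577 was not tested. H2afy had 4577 and 1071 fragments, a ratio of 2.41 (2.26 to 2.58). Hist2h3c2 had 129 and 18.7 fragments (3.83, 2.36 to 6.57), Hist2h4, an H4 gene at 1.49 and 0.52 TPM, had 88 and 16 (3.10, 1.81 to 5.67), and H2afx had 2896 and 869 (1.88, 1.74 to 2.03). At the other end stood Hist3h2ba with 177 and 416 fragments, a ratio of 0.240 (0.200 to 0.287, adjusted exact p 1.62e-62). Hist2h2ac had 21.7 and 47.6 fragments (0.259, 0.149 to 0.437) and Hist1h2ae 69.1 and 74.9 (0.519, 0.369 to 0.730). H3f3b had 11100 and 9583 fragments (0.654, 0.636 to 0.672) and Hist3h2a 3226 and 2520 (0.722, 0.686 to 0.761). These 10 are the called members with the 5 largest ratios each way on CPM + 0.5; without the added 0.5, Hist2h3b (2.04), Hist2h2be (1.90), Hist1h4c (1.90) and Hist1h2ac (1.89) stood above H2afx.

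Some deeply counted members were called with small ratios. H2afz had a ratio of 0.905 (0.884 to 0.926), H3f3a 0.899, H2afv 0.873 and Hist1h2bc 0.915. The 7 members tested but not called were Hist1h2ap, H2afj, H2afy2, H1f0, Hist1h2be, Hist1h4i and Hist1h1c, with ratios from 0.965 to 1.09. For the Hist2h2aa pair, the summed ratio was 1.44 (1.35 to 1.53), with 3398 and 1335 fragments.

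GC content moved with these ratios. The 12 members called higher had a median GC content of 59.0%, and the 11 called lower 48.5%. Of 8 tested members at 60% GC or more, 6 were called higher in replicate 1, near the share among all tested genes of that content, 517 of 749. Among all tested genes the median log2 ratio was 0.61 for those at 60% GC or more and -0.10 for the 2744 under 45%. After a smooth trend on GC content and length was removed, the log2 ratio of H1fx (71.3% GC) was 2.25, against 3.40 before, and that of H2afx 0.43, against 0.90. Hist2h2aa1 stood at -0.12, against 0.39 before, Hist2h3b at -0.04, against 0.72, and Hist1h2bc at 0.0015, against -0.13, so that all of these changed sign. Of the members not called, Hist1h2ap stood at -0.60, against -0.05 before, and H2afj at -0.29, against -0.03. H2afy was at 1.18, Hist2h3c2 at 1.11, Hist2h4 at 1.08, Hist3h2ba at -1.99 and Hist2h2ac at -1.53, and so kept their direction. What part GC content had in the differences was not tested.

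**Figure D5:**
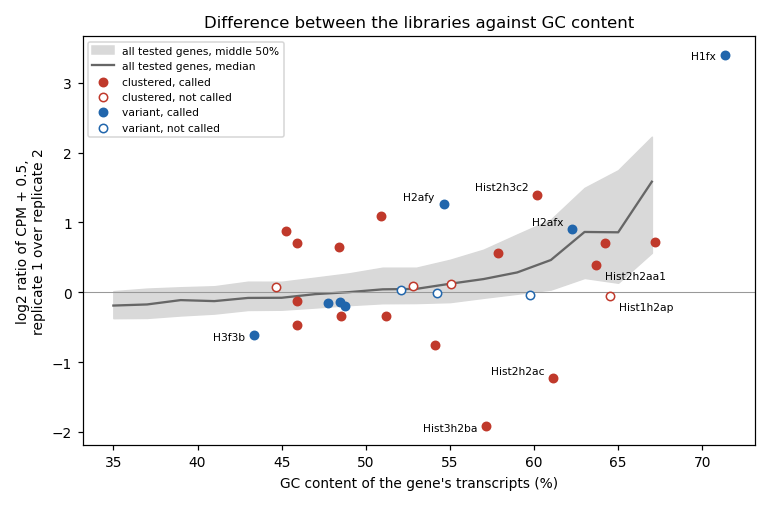
Log2 ratio of CPM + 0.5, replicate 1 over replicate 2, against GC content for the 30 tested histone genes (red clustered, blue variant, filled where called), over the median and middle 50% of all tested genes in GC bins of 20 or more genes. H1fx lies at the upper right at 71.3% GC, and Hist3h2ba and Hist2h2ac lie below the band.

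Genes that act on histones or their mRNAs were read from lists of the pathway. Of 21 genes for histone mRNA 3' end processing, 20 were at 1 TPM or more in both libraries, with a median of 20.8 and 16.4 TPM. Ncbp2, a cap-binding protein, had 46.4 and 53.5 TPM, the cleavage nuclease gene Cpsf3 28.1 and 33.6 TPM, and Zfp473, a U7-linked zinc finger gene, 0.14 and 0.34 TPM. Slbp itself, named after its values were seen, had 21.6 and 28.1 TPM. Of 30 histone chaperone and exchange genes, 27 were detected; Npm1 had 265 and 279 TPM, Nap1l5 207 and 235 TPM, and Chaf1b, of the chaperone that works behind the replication fork, 0.52 and 0.79 TPM. Of 20 S phase and proliferation genes, 15 were detected, at a median of 2.61 and 2.63 TPM. Pcna, the replication clamp, had 52.1 and 59.6 TPM and Ccne1, cyclin E1, 16 and 19.3 TPM, while the proliferation marker Mki67 had 0.14 and 0.05 TPM.

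Between the libraries, 10 of the 20 tested processing genes were called higher in replicate 1 and 4 lower, 13 and 11 of 28 chaperone genes, and 2 and 3 of 17 S phase genes, beside the 36.4% and 26.2% of all genes. Of 8 histone and related genes listed from outside the symbol rule, 6 were found. Hp1bp3, a linker histone relative, had 155 and 230 TPM, the centromere histone gene Cenpa 4.51 and 7.33 TPM, and H2al1m, H2al2a and H2bfm stood at 0. Of 6 RNAs that have no poly(A) tail, 4 were at 1 TPM or more. Rpph1 had 57.95 and 56.5 TPM from 372 and 226 fragments, and Rn7sk 42.3 and 36.0 TPM from 291 and 153. Rny3 rested on fewer fragments, with 127 and 39.0 TPM from 17 and 5, as did Rny1, with 53.4 and 83.9 TPM from 13 and 19, and Terc had none. Of 15 ribosomal protein genes, all detected, Rpl41 had 5586 and 5950 TPM, Rps29 4920 and 5665 TPM, and Rpl5 59.4 and 84.4 TPM.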

How the data were processed

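Expected counts per gene and TPM were made by the authors from transcriptome alignments on mm10 with GENCODE M21, per the file headers and deposited notes, and so was the isoform percent of each transcript. For the second tables the authors estimated counts and TPM per transcript straight from the paired read files, per the deposited notes. Neither kind of count was normalised on deposit; the sources name no tool, version or use of strand. Numeric rows and spike-ins stayed out.

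Members and lists were chosen with earlier results of these data known. Named genes were every member at 1 TPM or more in both libraries by either quantification, all variants, the 5 clustered members with most fragments, members differing between quantifications, the 5 largest ratios each way on CPM + 0.5, and the 2 highest and the lowest gene of each list. Expected counts were rounded and tested with an exact two-sided binomial test per gene at TMM library sizes (edgeR 4.0.16, R 4.3.3), with a mean of at least 1 CPM. Ratios on the log2 scale used CPM + 0.5, which understates changes of low genes; 95% Clopper-Pearson intervals have no pseudocount and cover counting error only, since no molecular identifiers were used. DESeq2 1.42.0 size factors were an alternative. The GC and length trend came from lowess (statsmodels 0.14.6, fraction 0.3). The library test was tested on simulated data with counting error only. Promoters are from RefSeq (GRCm38.p6) by symbol or synonym, for 62 clustered and 15 variant genes.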

Additional observations from a re-analysis of the deposited data

How the results depend on the processing

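No paired analysis was possible because there is 1 group, and the library test has 1 library on each side, so that none could be left out. At 5 TPM, 11 clustered genes were detected. The summed TPM by the second quantification was 394 for clustered and 1160 for variant genes, both lower than by the first. With either library alone, 25 to 27 clustered genes and 11 variant genes were detected, the medians were 0.38 to 0.42 and 10.8 to 18.5 TPM, the sums 505 to 519 and 1391 to 1614 TPM, and 1 member differed between quantifications. At a mean of 5 CPM, 15 members were called, all among the 23; here fewer genes were tested. Other filters, size factors and counts gave 22 to 29 calls. Ratios that changed sign were H1f0 (-0.0932 by total counts, -0.0464 by the second quantification, -0.0184 without the GC trend), Hist1h1c (-0.00019), Hist1h4i (-0.0195) and Hist1h2be (-0.0369) by total counts, H2afy2 (0.0138), Hist1h2ap (0.10) and Hist1h2be (-0.16) by the second quantification, and Hist1h2bc (0.0015), Hist2h2aa1 (-0.12) and Hist2h3b (-0.0410) without the GC and length trend. Total counts shift the median of all genes to -0.09. The cause of the other changes was not tested. Depth limits genes under about 30 fragments, whose intervals are wide.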
